A study of Mus musculus with 2 samples.

Results

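The genes described here encode enzymes and subunits that place methyl groups on lysine 4 of histone H3 (H3K4), together with a demethylase of lysine 27 (H3K27). They are 10 genes of the 29311 listed in the deposited tables, and were chosen by name. The catalytic subunits are *Mll1*, *Mll2*, *Mll3*, *Setd1a* and *Setd1b*, the shared core is *Wdr5*, *Ash2l* and *Rbbp5*, and the other members are *Men1* and the demethylase gene *Kdm6b*. All 10 were found in both tables, none was removed by a filter on low values, and the fewest reads behind a value were 163 (*Kdm6b* in ES cells).

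The study measured RNA from wild-type mouse embryonic stem (ES) cells of the E14 line and from wild-type forebrain of B6CBAF1/J embryos at E10.5, a stage of midgestation. Each was sequenced as 1 sample, without replicates. According to the methods, the ES cells were grown without feeders in serum and LIF, and forebrain RNA came from single embryos. Both libraries were strand-specific and made from total RNA depleted of ribosomal RNA, whereas the RNA was extracted with Trizol from ES cells and with Trizol LS from forebrain. The forebrain is a dissected tissue of several cell types, so that in these bulk samples fewer cells of a type and less RNA per cell cannot be told apart.

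In mammals, H3K4 methylation is carried out by a family of COMPASS complexes. Each contains a single catalytic subunit with a SET domain, from the MLL or the SETD1 branch, on a common core of Wdr5, Rbbp5, Ash2l and Dpy30 that the enzyme needs for full activity. Trimethylated H3K4 marks active promoters, and in ES cells it also occurs with H3K27 trimethylation at promoters of silent developmental regulators such as the *Hox* genes, an arrangement known as bivalent chromatin. Kdm6a and Kdm6b remove H3K27 methylation, and Kdm6a is itself a subunit of the Mll2 and Mll3 complexes.

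The core genes were higher in ES cells, whereas the catalytic genes were all higher in forebrain in the values as deposited. Among the 19620 protein-coding genes, 10832 were higher in forebrain. *Ash2l* was 3.17-fold higher in ES cells, *Wdr5* 2.37-fold and *Rbbp5* 1.58-fold. The catalytic genes were 1.12-fold (*Setd1a*) to 2.03-fold (*Setd1b*) higher in forebrain. *Kdm6b* was 3.91-fold higher in forebrain, the largest difference among the members as deposited, whereas that of *Ash2l* was larger with scaling by the median of ratios (1.83 against -1.77 in log2) and less the median of the length class (1.97 against -1.43). *Setd1a* did not keep its direction under every scaling of the samples, and the difference of the long catalytic genes was close to that of other genes of their length.

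Some facts of the libraries bear on these values. The deposited unit is called RPKM by the authors (reads per kilobase of exon, scaled to the number of mapped reads), but the scaling between samples is not given in the sources used here. Reads were inferred from the low values, most of which lay near whole multiples of 1.22 RPKM times kilobase in ES cells and 0.819 in forebrain. After rounding to whole reads, this gives a depth of 42779468 gene reads for the ES cell library and 59786556 for the forebrain library. At these depths, 1 read per kilobase would be far less than either multiple if scaled to 1000000 gene reads. The deposited values are therefore much larger than RPKM on that scale. RPKM here means the deposited unit, which cannot be set against RPKM of other studies. Intervals are 95% intervals on these reads, exact for levels and folds between samples, which cover counting error only, and say nothing of variation between cultures or embryos. With 1 sample per group there was no test, and a difference is called past 2-fold where log2(RPKM + 1) differed by at least 1. The 6 markers of ES cells sum to 37188 RPKM in ES cells and 158.4 in forebrain, and the 6 of forebrain neuroepithelium to 24.4 and 5126, with *Lhx2* at 0 in ES cells.

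Other cell types were seen in the forebrain sample. The 3 primitive erythroid markers were all higher there and sum to 672935 RPKM against 274.1 in ES cells. All 3 mesenchyme markers were higher in forebrain (2470 against 29.9), as were all 3 neuronal markers (3643 against 803.4) and 2 of 3 endothelial markers (1243 against 577.7). In ES cells, 2 of 3 primitive streak markers were higher (1211 against 237.4), mostly through *T* at 1112 RPKM, whereas the 3 endoderm markers summed to 7.56 in ES cells and 47.7 in forebrain. Of 3 fibroblast markers, 2 were higher in forebrain and *Thy1* was higher in ES cells (50.3 against 1.89), the lists summing to 806.5 and 71.4. The part of these cells in the levels of the members was not tested.

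Promoters of the members were read from RefSeq on mouse build GRCm38.p6, which holds 7 of the 10, namely *Mll1*, *Mll2*, *Mll3*, *Setd1a*, *Wdr5*, *Rbbp5* and *Men1*. *Setd1b*, *Ash2l* and *Kdm6b* had no entry. The 250 bases upstream of the annotated start are shown for 3 catalytic genes that were higher in forebrain and for 2 core genes that were higher in ES cells, so that both directions can be compared. The positions are chr9:44881290-44881539 on the minus strand for *Mll1*, chr15:98871206-98871455 on the minus strand for *Mll2*, chr5:25498784-25499033 on the minus strand for *Mll3*, chr2:27514897-27515146 on the plus strand for *Wdr5* and chr1:132477117-132477366 on the plus strand for *Rbbp5*. Each is written 5′ to 3′ along the gene, and capitals mark the Sp/KLF letters GGGCGG or, on the other strand, CCGCCC.
Mll1: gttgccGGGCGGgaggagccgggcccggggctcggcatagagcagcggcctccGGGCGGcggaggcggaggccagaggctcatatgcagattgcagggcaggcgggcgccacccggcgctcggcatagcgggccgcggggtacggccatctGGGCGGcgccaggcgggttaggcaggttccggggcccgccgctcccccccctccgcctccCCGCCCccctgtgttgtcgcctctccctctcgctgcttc
Mll2: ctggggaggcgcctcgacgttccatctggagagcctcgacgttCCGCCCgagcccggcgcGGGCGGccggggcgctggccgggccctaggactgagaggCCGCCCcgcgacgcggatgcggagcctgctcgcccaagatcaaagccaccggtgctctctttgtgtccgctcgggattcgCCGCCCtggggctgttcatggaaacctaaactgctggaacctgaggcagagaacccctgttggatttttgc
Mll3: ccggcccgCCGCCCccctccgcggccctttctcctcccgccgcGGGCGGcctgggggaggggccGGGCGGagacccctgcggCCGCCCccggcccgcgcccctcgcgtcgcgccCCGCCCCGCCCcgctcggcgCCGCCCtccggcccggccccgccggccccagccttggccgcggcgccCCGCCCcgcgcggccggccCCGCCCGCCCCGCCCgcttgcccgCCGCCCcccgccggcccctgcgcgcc
Wdr5: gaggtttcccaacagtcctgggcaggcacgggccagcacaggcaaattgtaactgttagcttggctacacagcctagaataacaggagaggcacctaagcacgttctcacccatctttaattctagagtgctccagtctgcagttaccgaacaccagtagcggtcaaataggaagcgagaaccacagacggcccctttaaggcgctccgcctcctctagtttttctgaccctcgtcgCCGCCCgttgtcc
Rbbp5: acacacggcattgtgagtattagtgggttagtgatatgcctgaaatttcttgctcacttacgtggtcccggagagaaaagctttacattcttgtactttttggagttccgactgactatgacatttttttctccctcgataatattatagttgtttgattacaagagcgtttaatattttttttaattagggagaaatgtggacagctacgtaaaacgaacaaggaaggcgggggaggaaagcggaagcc

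These windows differ in base composition. The *Mll3* promoter has 91.6% G and C and 48 CpG dinucleotides, more than 99.8% of the 32851 promoters in the table, whose median is 6. *Mll1* has 29 CpGs, *Mll2* 26 and *Setd1a* 25, whereas *Wdr5* has 12, *Rbbp5* 10 and *Men1* 8 to 10 across its 3 annotated starts. The 4 catalytic genes with an entry therefore have more CpGs than the 2 core genes.

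The same order was found only in part for motif letters, searched on both strands with overlapping matches counted. GGGCGG occurred 12 times upstream of *Mll3*, 4 times each upstream of *Mll1* and *Mll2*, once in *Wdr5* and once in each window of *Men1*, and was not present upstream of *Setd1a* or *Rbbp5*. It occurs in 32.7% of all promoters of the table. The ETS letters CCGGAAG (6.91% of all promoters), the palindromic NRF1 motif (0.782%), the E-box CACGTG (6.02%) and the TATA letters TATAAA (12.4%) had no match in any of these windows. A match of letters is a description of the window and does not show that a factor binds there.

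Levels per length of exon spread over more than 2 orders of magnitude in ES cells. *Wdr5* was highest in both samples and *Setd1b* lowest. In ES cells the order was *Wdr5*, *Ash2l*, *Men1*, *Rbbp5*, *Mll3*, *Setd1a*, *Mll1*, *Mll2*, *Kdm6b*, *Setd1b*, and in forebrain it was the same except that *Mll1* stood above *Setd1a*. The intervals of neighbours overlapped for *Men1* and *Rbbp5* and for *Kdm6b* and *Setd1b* in ES cells, and for *Mll1* and *Setd1a* in forebrain, so the order of these pairs was not resolved by the depth. Every core gene was above every catalytic gene in both samples. The lowest core gene was 3.50 times the highest catalytic gene in ES cells and 1.44 times in forebrain.

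**Figure D1:**
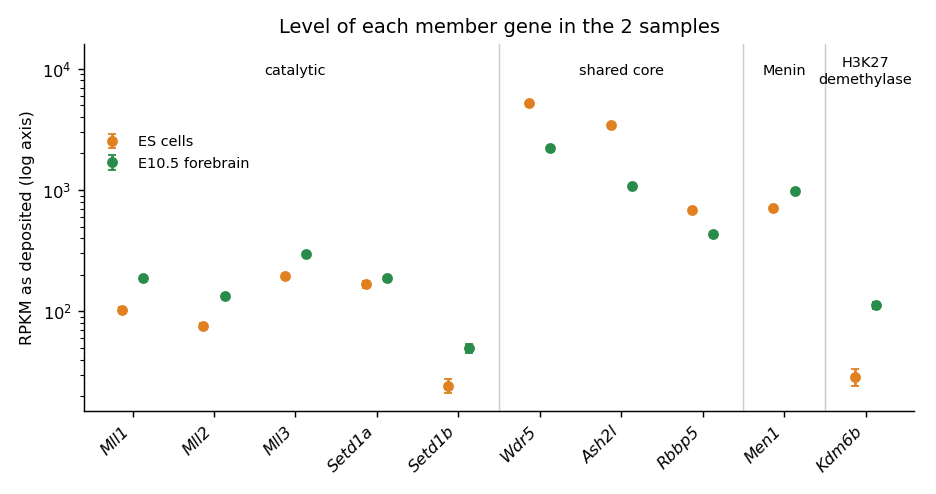
RPKM of each of the 10 members (log axis) in the ES cell and the E10.5 forebrain sample, with bars for the exact 95% Poisson interval of the inferred reads. *Wdr5* and *Ash2l* stand highest in both samples, at 5218 and 3421 RPKM in ES cells, and *Setd1b* lowest, at 24.3 and 49.4. In ES cells the interval of *Setd1b* overlaps that of *Kdm6b*.

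Among the catalytic subunits, *Mll1* is the founding member of the mammalian family, a homologue of *Drosophila* trithorax that maintains *Hox* gene expression. It lies on the minus strand of chr9:44611438-44689379 in NCBIM37, the build of the files, with 16670 bp of exon. Its level was 101.95 RPKM in ES cells (interval 96.7 to 107, 1392 reads) and 189.2 in forebrain (183 to 195, 3851 reads). The forebrain value was 1.86-fold higher (1.75 to 1.97) and the intervals did not overlap, but it stayed under 2-fold at a log2 ratio of ES cells to forebrain of -0.89.

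*Mll2* and *Mll3* (now *Kmt2d* and *Kmt2c*) encode the enzymes known for H3K4 monomethylation at enhancers. *Mll2*, on the minus strand of chr15:98662100-98701614, has 19805 bp of exon and measured 74.99 RPKM in ES cells (70.8 to 79.3, 1216 reads) and 133.7 in forebrain (129 to 138, 3233 reads), 1.78-fold higher in forebrain (1.67 to 1.91). *Mll3*, on the minus strand of chr5:24777612-25004601 with 20296 bp, measured 194.57 (188 to 201, 3234 reads) and 299.03 (292 to 306, 7410 reads), 1.54-fold higher in forebrain (1.47 to 1.60). *Mll3* was thus the most abundant catalytic member in both samples. Both genes were higher in forebrain by more than their counting error. A stretch of 455 bp, 2.30% of the *Mll2* transcript, has a copy of 99.6% identity outside annotated genes on chromosome 12.

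*Setd1a* and *Setd1b* encode the SETD1 enzymes, which carry out much of the H3K4 trimethylation at active promoters. *Setd1a*, on the plus strand of chr7:134920184-134943636 with 6795 bp of exon, measured 167.27 RPKM in ES cells (157 to 178, 931 reads) and 186.78 in forebrain (178 to 196, 1550 reads), a ratio of 1.12 towards forebrain (1.03 to 1.21). The value is uncertain, since 3523 bp or 51.8% of its exonic length is shared on the same strand with *Hsd3b7*, listed at 124.3 and 130.1 RPKM, and how reads in shared exons were assigned is not given in the sources used here. *Setd1b*, on the plus strand of chr5:123592202-123617444 with 10874 bp, was the lowest member at 24.27 RPKM (21.1 to 27.7, 216 reads) and 49.35 (45.6 to 53.3, 655 reads). In ES cells its interval overlapped that of *Kdm6b*. The forebrain to ES cell ratio of *Setd1b* was 2.03 (1.74 to 2.38), and -0.99 on the log2(RPKM + 1) scale, just under the limit.

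Within the catalytic group, *Setd1a* held a larger share in ES cells and *Mll1*, *Mll2* and *Setd1b* smaller ones. The 5 genes summed to 563.1 RPKM in ES cells and 858.1 in forebrain, 1.52-fold higher in forebrain (1.48 to 1.57). As a share of this sum, which no scaling between the samples can change, *Mll3* held 34.6% ± 0.57 (counting SE) in ES cells and 34.8% ± 0.37 in forebrain. *Setd1a* held 29.7% ± 0.74 in ES cells and 21.8% ± 0.45 in forebrain, which was the largest shift of the group. The other shares were 18.1% ± 0.46 and 22.0% ± 0.33 for *Mll1*, 13.3% ± 0.37 and 15.6% ± 0.26 for *Mll2*, and 4.31% ± 0.29 and 5.75% ± 0.22 for *Setd1b*, each higher in forebrain. The ratio of *Mll1* to *Mll2* was 1.36 (1.26 to 1.47) in ES cells and 1.42 (1.35 to 1.48) in forebrain, with overlapping intervals. By contrast, *Setd1a* was 0.450 of the summed Mll genes in ES cells (0.420 to 0.483) and 0.300 in forebrain (0.285 to 0.316), and 6.89 times *Setd1b* in ES cells (5.94 to 7.99) against 3.78 times in forebrain (3.45 to 4.15). These values of *Setd1a* carry the uncertainty of its exons shared with *Hsd3b7*. They also do not allow for length, since genes of its length had a median log2 ratio of -0.50 and those as long as the Mll genes -0.85.

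The core genes were more abundant than the catalytic genes, and *Wdr5* and *Ash2l* differed more between the samples than any catalytic gene did in the values as deposited. *Wdr5* encodes the WD40 protein that docks the catalytic subunit, and also occurs in other chromatin complexes. On the plus strand of chr2:27370677-27392055 with 3596 bp of exon, it measured 5218 RPKM in ES cells (5136 to 5301, 15369 reads) and 2200 in forebrain (2156 to 2244, 9658 reads). The ES cell value was 2.37-fold higher (2.31 to 2.43), a log2 ratio of 1.25, and it ranked above 98.4% of protein-coding genes in ES cells and 95.5% in forebrain.

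*Ash2l*, the mammalian Ash2 that forms with Rbbp5 the surface holding the SET domain, lies on the minus strand of chr8:26926663-26958166 with 5231 bp of exon. It measured 3421 RPKM in ES cells (3366 to 3477, 14659 reads) and 1080 in forebrain (1054 to 1105, 6895 reads), 3.17-fold higher in ES cells (3.08 to 3.26) at a log2 ratio of 1.66. A listed pseudogene on chromosome 2, *Gm13462*, aligned to 17.7% of the longest *Ash2l* transcript at 91.0% identity and had 3695 and 935.0 RPKM, also higher in ES cells. With its 2908 and 1097 inferred reads added to those of *Ash2l*, the ratio was 3.28. *Gm13462* was itself 3.95-fold higher in ES cells, so that adding its reads could only raise the ratio of *Ash2l* and does not test it.

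*Rbbp5* encodes the other subunit of that surface. On the plus strand of chr1:134373944-134402242 with 3632 bp of exon, it measured 681.9 RPKM in ES cells (652 to 712, 2028 reads) and 431.7 in forebrain (413 to 451, 1914 reads), 1.58-fold higher in ES cells (1.48 to 1.68) and under 2-fold. Its value is uncertain, because the listed pseudogene *Gm11977* on chromosome 11 aligned to 73.3% of its longest transcript at 96.2% identity and had 994.0 and 695.8 RPKM. With the reads of *Gm11977* added, *Rbbp5* was 1.52-fold higher in ES cells. *Gm11977* was itself higher in ES cells, so that adding its reads could not reverse the direction of *Rbbp5* and does not test it.

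Set against the summed catalytic genes of the same sample, all 3 core genes were higher in ES cells. *Wdr5* was 9.27 times this sum in ES cells (8.99 to 9.56) and 2.56 times in forebrain (2.50 to 2.63), and *Ash2l* 6.08 times (5.89 to 6.27) and 1.26 times (1.22 to 1.30). *Rbbp5* was 1.21 times the sum in ES cells (1.15 to 1.27) and 0.503 times in forebrain (0.480 to 0.528). The quotients thus differed between the samples by 3.61-fold for *Wdr5*, 4.83-fold for *Ash2l* and 2.41-fold for *Rbbp5*, values that do not depend on how the samples were scaled. They do not allow for exonic length, which differed between core and catalytic genes. The median log2 ratio of protein-coding genes of like length was -0.15 for *Wdr5* and *Rbbp5* and -0.30 for *Ash2l*. For the catalytic genes it was -0.50 to -0.85. The part of length in the quotients was not tested. The core genes also differed among themselves, since *Ash2l* was 5.02 times *Rbbp5* in ES cells (4.79 to 5.26) and 2.50 times in forebrain (2.38 to 2.63).

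**Figure D2:**
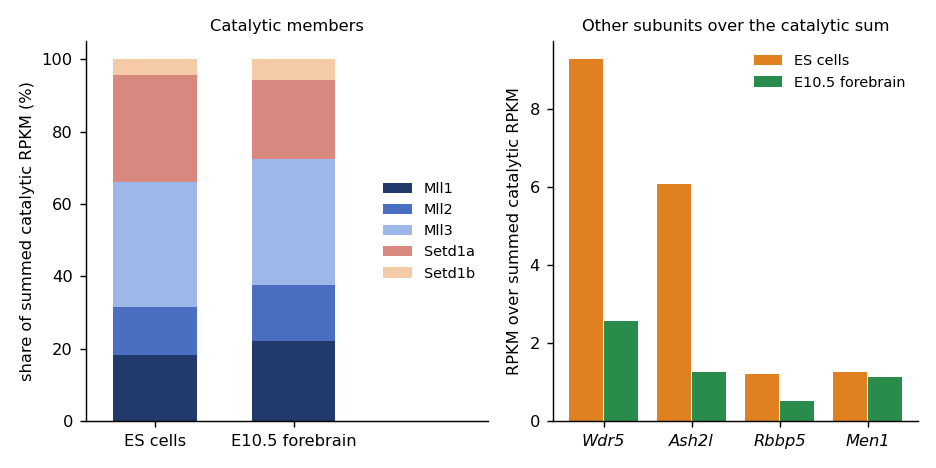
Composition within each sample, with the share of the summed catalytic RPKM held by each catalytic member and the level of each core member and *Men1* relative to that sum (linear axis from 0, no error bars). *Mll3* holds 34.6% in ES cells and 34.8% in forebrain, whereas *Wdr5* is 9.27 times the sum in ES cells and 2.56 times in forebrain.

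*Men1* encodes menin, a subunit particular to the complexes of Mll1 and Kmt2b that links them to chromatin. On the plus strand of chr19:6334979-6340891 with 3458 bp of exon, it measured 706.5 RPKM in ES cells (676 to 738, 2001 reads) and 975.8 in forebrain (946 to 1006, 4120 reads). It was 1.38-fold higher in forebrain (1.31 to 1.46), a log2 ratio of -0.47. Relative to the catalytic sum it was 1.25 in ES cells (1.19 to 1.32) and 1.14 in forebrain (1.10 to 1.18), a 1.10-fold difference (1.04 to 1.17) and much smaller than that of any core gene. In the values as deposited, *Men1* thus had the direction of the catalytic rather than the core genes. Relative to the catalytic sum it was slightly higher in ES cells, as the core genes were.

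*Kdm6b*, also known as Jmjd3, encodes an H3K27 demethylase that is induced in differentiation and in neural commitment. On the minus strand of chr11:69212010-69227177 with 6954 bp of exon, it measured 28.7 RPKM in ES cells (24.4 to 33.4, 163 reads) and 112.1 in forebrain (105 to 119, 952 reads). It was 3.91-fold higher in forebrain (3.32 to 4.66) at a log2 ratio of -1.93, and was the only member past 2-fold in that direction. An antisense transcript, *1700064E03Rik* (30.5 and 50.7 RPKM), overlaps 286 bp or 4.11% of its exonic length. Its paralogue *Kdm6a*, which is no member, was higher in both samples, and the ratio of *Kdm6a* to *Kdm6b* was 17.2 in ES cells (14.7 to 20.1) and 5.67 in forebrain (5.30 to 6.07).

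Of the 10 members, 3 were past 2-fold, with *Wdr5* and *Ash2l* higher in ES cells and *Kdm6b* higher in forebrain. Among all listed genes 23.3% were past 2-fold towards ES cells and 25.8% towards forebrain, and among protein-coding genes 18.9% and 27.9%. The members' 2 of 10 towards ES cells was near these shares and their 1 of 10 towards forebrain below them. At 1.5-fold the count was 8, with 3 members higher in ES cells (background 32.5%) and 5 higher in forebrain (34.2%), leaving *Setd1a* and *Men1* below. The 5 catalytic genes had a median log2 ratio of -0.83 and the 3 core genes of 1.25, whereas the 10 members together had -0.54. The medians were -0.01 for all listed genes and -0.17 for protein-coding genes.

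Of the 21 other genes of H3K4 and H3K27 methylation, 5 were past 2-fold, 1 towards ES cells and 4 towards forebrain, beside the 23.3% and 25.8% of all listed genes. The split depended on the setting, since it was 2 and 2 with scaling by the upper quartile, 4 and 2 by the median of ratios, and 4 and 1 less the median of the length class. The direct counterparts of the members had the directions of those members in the values as deposited. *Wbp7* (now *Kmt2b*), the MLL enzyme known for bivalent promoters in ES cells, measured 191.9 RPKM in ES cells and 238.2 in forebrain, a log2 ratio of -0.31. *Dpy30*, the remaining core subunit, measured 3122 and 1660, a log2 ratio of 0.91, and *Kdm6a* 492.7 and 636.0, a log2 ratio of -0.37. With these, all 4 core genes were higher in ES cells and all 6 catalytic genes of the MLL and SETD1 branches higher in forebrain as deposited. Among all 19620 protein-coding genes, 10832 were higher in forebrain. The share was 65.6% to 73.9% in the length classes of the catalytic genes and 41.5% to 60.6% in those of the core genes. Less the median of their length class, however, *Wbp7* (0.27) and *Kdm6a* (0.21) changed sign, as did *Mll2*, *Mll3* and *Setd1a*, and *Setd1a* also did so by the median of ratios. *Dpy30* fell to 0.57 less the median of its class.

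The other genes past 2-fold lie mostly outside these complexes. *Setd7*, which monomethylates H3K4 and non-histone proteins, measured 33.7 RPKM in ES cells and 232.4 in forebrain, a log2 ratio of -2.75. *Ash1l*, a further SET domain enzyme of the trithorax group, measured 130.6 and 355.5 (-1.44), and the meiotic enzyme gene *Prdm9* 16.7 and 35.3 (-1.04). *Ash1l* fell below 2-fold less the length class median (-0.86). *Prdm9* fell below it less the length class median (-0.73), with scaling by the upper quartile or the median of ratios, and with a pseudocount of 5. *Psip1*, whose product joins menin and Mll1, was the only one of 7 complex-specific subunits past 2-fold, at 1084 and 2238 (-1.05). It fell below 2-fold with scaling by the upper quartile or the median of ratios and less the length class median (-0.74), whereas *Paxip1*, at 677.6 and 361.8 (0.90), passed towards ES cells by the median of ratios and less the class median (1.21). *Smyd3*, at 191.3 and 97.3 (0.97), passed towards ES cells by the upper quartile, by the median of ratios and less the class median (1.55). *Dpy30* passed by the median of ratios only. *Smyd1*, a muscle gene, was past 2-fold towards ES cells at low levels of 9.40 and 3.96. It fell below 2-fold with scaling by the sum, per inferred reads and with a pseudocount of 5. None of the 5 H3K4 demethylases was past 2-fold, and their log2 ratios lay between -0.59 and 0.65, although *Kdm5b* passed towards ES cells less the class median (1.15).

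**Figure D3:**
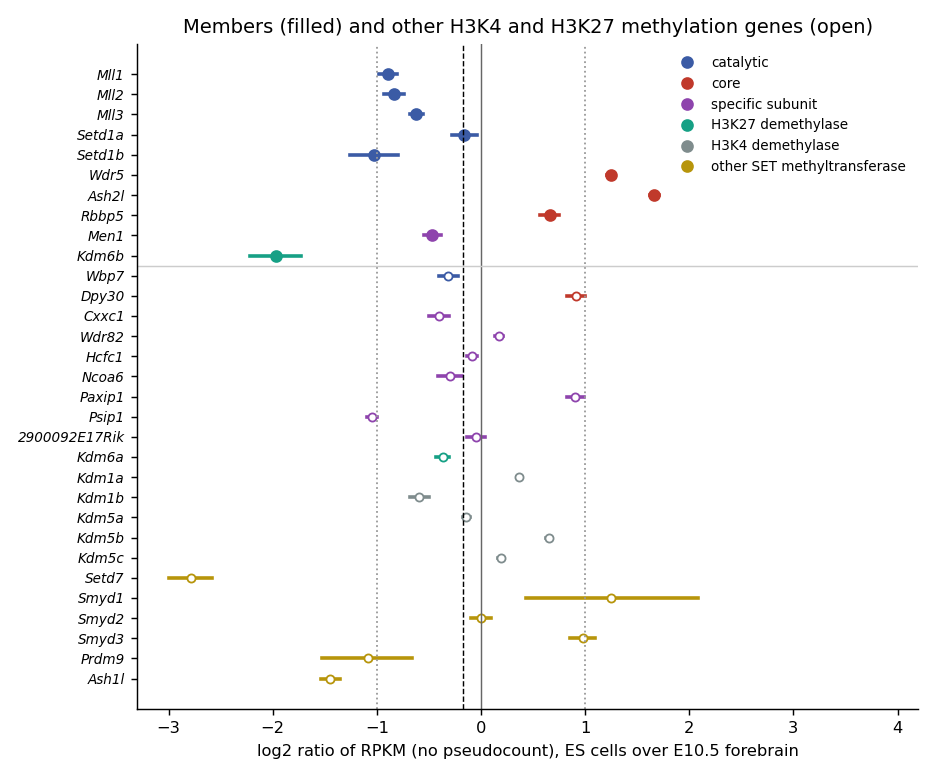
Log2 ratio of RPKM, ES cells to forebrain and without a pseudocount, of the 10 members (filled) and 21 other genes (open), coloured by role, with exact 95% intervals for counting error, dotted lines at 2-fold and a dashed line at the median of protein-coding genes. The core genes *Wdr5*, *Ash2l*, *Rbbp5* and *Dpy30* lie to the right of 0 and the catalytic genes to the left, with *Setd1b* at 2.03-fold without the pseudocount and just under 2-fold with it.

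Long genes were in general higher in the forebrain sample. The median log2 ratio of protein-coding genes was 0.34 for genes of up to 1000 bp of exon and fell to -0.85 for the 395 genes above 12000 bp, of which 46.3% were past 2-fold towards forebrain. Over the 19620 protein-coding genes, Spearman's rho of exonic length and log2 ratio was -0.20. *Mll1*, *Mll2* and *Mll3* are among these longest genes and stood at percentiles 48.9, 50.4 and 54.2 of their length class, that is at its middle. After subtraction of the class median, their log2 ratios were -0.04, 0.02 and 0.23, and those of *Setd1a* and *Setd1b* 0.34 and -0.41, so that the catalytic genes no longer shared a direction.

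The core genes and *Kdm6b* lay further from the middle of their length classes. *Ash2l* was at percentile 92.1 of its class, *Wdr5* at 85.9 and *Rbbp5* at 76.1, whereas *Kdm6b* was at 20.8. Less the class median, the log2 ratios were 1.97, 1.40, 0.81 and -1.43, so that *Ash2l*, *Wdr5* and *Kdm6b* remained the 3 members past 2-fold. *Men1* was at percentile 40.2 with -0.31. The part of length in the difference of the catalytic genes was not tested.

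**Figure D4:**
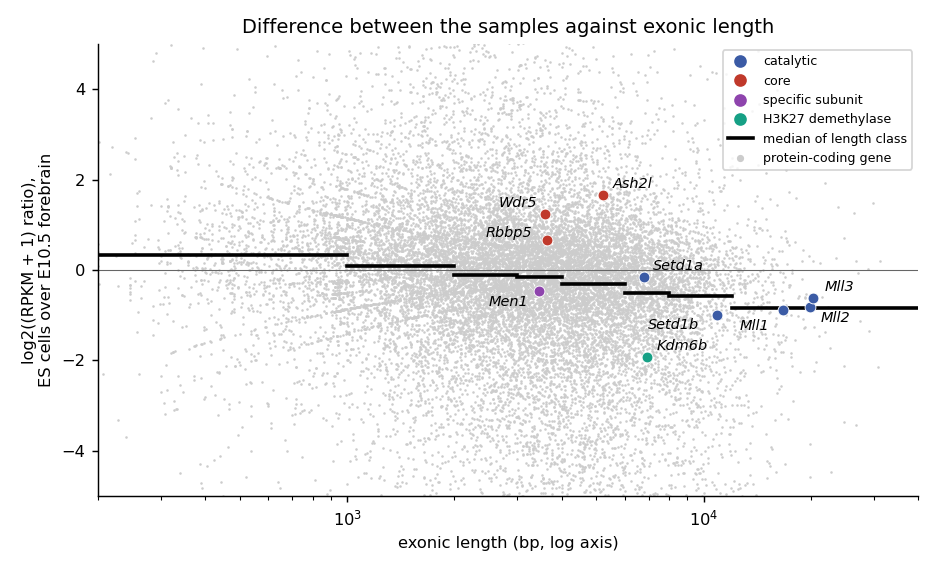
Difference in log2(RPKM + 1), ES cells less E10.5 forebrain, against exonic length in bp (log axis) for protein-coding genes (grey, those beyond the axes not drawn), with black lines for the median of each length class. *Mll1*, *Mll2* and *Mll3* lie close to the line of their class at -0.85, and *Ash2l* and *Wdr5* lie well above theirs.

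The scaling of the samples moves all members together. With values divided by their sum, the log2 ratios of *Mll1*, *Mll2* and *Setd1b* were -1.16, -1.09 and -1.26 and that of *Wdr5* 0.97, whereas with a median-of-ratios factor they were -0.72, -0.66, -0.84 and 1.41. *Ash2l* stayed between 1.39 and 1.83 and *Kdm6b* between -2.19 and -1.77 across the scalings and pseudocounts tried. *Setd1a* ranged from -0.43 to 0.01 so that its direction depended on the scaling. *Rbbp5* remained higher in ES cells (0.39 to 0.82) and *Men1* higher in forebrain (-0.74 to -0.30).

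**Figure D5:**
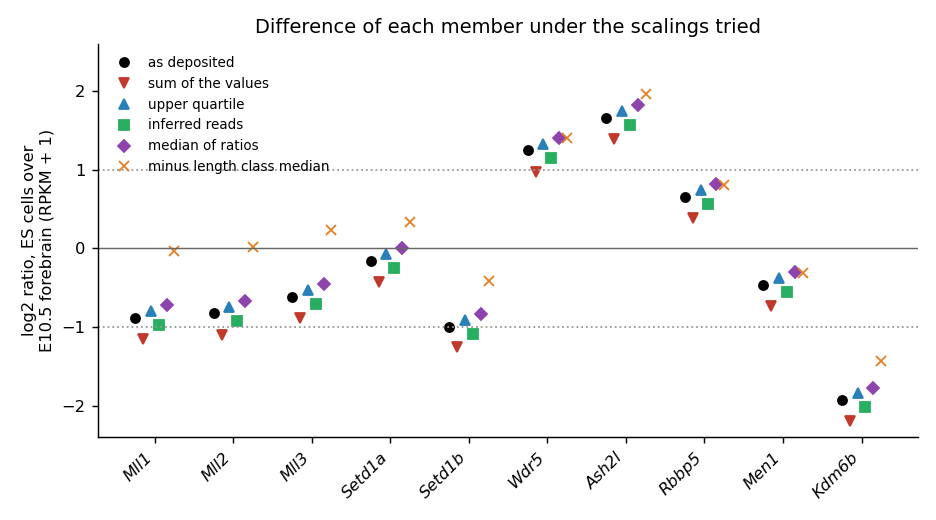
Log2 ratio of RPKM + 1 for each member, with ES cells as numerator and forebrain as denominator, as deposited, under 4 other scalings, and less the median of its length class, with dotted lines at 2-fold. *Ash2l* and *Kdm6b* lie past 2-fold in every one, and *Setd1a* lies on both sides of 0.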

How the data were processed

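RNA-seq of 1 ES cell and 1 E10.5 forebrain sample was analysed. The authors mapped single-end reads (100 bp in the labels, 50 bp in the methods) to NCBIM37 (mm9) with the HTSstation pipeline and deposited 1 RPKM value per gene and sample. The submitters' processing notes name Bowtie 0.12.7. The 4C-seq and ChIP-seq experiments were not analysed here.

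All 29311 genes matched the annotation of that build by identifier and coordinates, and exonic lengths were taken from it. Of low values (up to 20 reads), 63.2% in ES cells and 62.7% in forebrain lay within 0.05 of a whole read, where 10% would by chance, and values were rounded to whole reads. Intervals are exact Poisson for values, Clopper-Pearson for ratios between samples, and log-normal for quotients and sums. Ratios used log2(RPKM + 1), which understates differences of low genes. Members' transcripts were searched against the genome with blastn 2.17.0 (identity of at least 90% over at least 300 bp).

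The members and lists were chosen with earlier results of these data known. The named genes are all members, *Wbp7*, *Dpy30* and *Kdm6a*, and other genes of the wider list past 2-fold as deposited or in another setting. Alternatives covered scaling, pseudocounts of 0.1 and 5, a 1.5-fold limit and a filter at 1 RPKM. Length classes and added pseudogene reads were chosen after seeing the data. The scripts were tested on simulated data. Values were computed in Python 3.11.15 with pandas 2.3.3, numpy 2.4.6 and scipy 1.17.1, and drawn with matplotlib 3.10.9.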

Additional observations from a re-analysis of the deposited data

How the results depend on the processing

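Of 129 alternative values, 60 moved by less than counting error or, for counts, stayed within 1.5 times, 64 moved further and 5 changed sign. Scaling by the sum shifts the median log2 ratio of all genes by -0.24 and the median of ratios by 0.15. The count of members past 2-fold was 5 with scaling by the sum (*Mll1*, *Mll2*, *Setd1b*, *Ash2l* and *Kdm6b*) and 8 at 1.5-fold, and it was 4, with *Setd1b*, per inferred reads and with a pseudocount of 0.1. For the wider list it was 3 with a pseudocount of 5 and 10 at 1.5-fold, and 4 to 6 otherwise. The members' median was -0.81 with scaling by the sum, -0.45 by the upper quartile, -0.63 per inferred reads, -0.38 by the median of ratios and -0.47 without *Kdm6b*. Less the median of the length class, it changed sign to 0.13, as did *Mll2* (0.022), *Mll3* (0.23) and *Setd1a* (0.34). *Setd1a* also changed sign, to 0.0055, with the median of ratios. The cause was not tested. The share of *Mll3* among catalytic genes was 46.3% in ES cells and 44.4% in forebrain in inferred reads, and 25.8% and 27.3% with *Wbp7* added. The filter at 1 RPKM removed no member. No paired analysis was possible because each group has 1 sample. With 1 sample per group, no difference between the samples can be told from variation between cultures or embryos.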
